A study of Mus musculus with 24 samples.

Results

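Circular RNAs made from the exons of 4 genes of the cardiac calcium cycle, Ryr2, Cacna1c, Slc8a1 and Atp2a2, were followed in RNA of cardiac fibroblast preparations from mice with pressure overload and their controls. A circular RNA was assigned to one of these genes when both ends of its back-splice junction, where a later exon is joined back to an earlier one, lay at exon edges of that gene on the same strand of the mouse build mm10. This rule took 6 of the 1717 circular RNAs in the authors' table: 3 from Ryr2 and 1 each from Cacna1c, Slc8a1 and Atp2a2. Together they held 382 of 138868 junction reads, or 0.275%.

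Male C57BL/6J mice, 8 weeks old at surgery, received a transverse aortic constriction (TAC), in which a ligature narrows the aortic arch and raises the load on the heart, or a sham operation in which the ligature was not tied. Fibroblasts were isolated from hearts perfused on a Langendorff apparatus, and ribosomal RNA was depleted before stranded libraries of total RNA were made. The groups were TAC at 1 week (n = 4) and its sham (n = 4), TAC at 4 weeks (n = 4) and its sham (n = 5), and TAC at 8 weeks (n = 3) and its sham (n = 4). All groups shared strain, sex, age at surgery and open-chest operation, and no genetic change was stated. The labels do not say whether each of the 24 libraries came from its own mouse, so the p-values below rest on a spread among libraries that may be technical in part. Nothing in the labels speaks of a cell sort.

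In heart muscle each beat begins when the L-type calcium channel, whose pore subunit Cacna1c encodes, lets in a little calcium that opens the ryanodine receptor Ryr2, the release channel of the sarcoplasmic reticulum. Relaxation follows when the pump SERCA2, encoded by Atp2a2, returns calcium to the store and the sodium-calcium exchanger NCX1, encoded by Slc8a1, carries the rest out of the cell. Ryr2 is known as a gene of cardiomyocytes, whereas Atp2a2 is used by most cell types, and Slc8a1 is a well-known source of a circular RNA in heart.

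The 6 junctions are printed because their reads are what was counted. Each line gives 25 bases on either side of the join, read 5′ to 3′ along the RNA from GENCODE M21 transcripts, with the end of the last exon in lower case and the start of the first exon in capitals. No linear transcript of that annotation held any of the 50-base sequences, and no 25-base side occurred in another gene. All 6 junctions lie on the minus strand.
Ryr2 exons 59 to 62: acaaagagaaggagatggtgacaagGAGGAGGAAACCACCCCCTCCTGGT
Ryr2 exons 24 to 27: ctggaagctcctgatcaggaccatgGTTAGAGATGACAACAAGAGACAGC
Ryr2 exons 24 to 29: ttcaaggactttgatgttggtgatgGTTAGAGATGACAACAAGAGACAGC
Cacna1c exons 2 to 3: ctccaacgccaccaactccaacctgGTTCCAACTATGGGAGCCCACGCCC
Slc8a1 exons 3 to 9: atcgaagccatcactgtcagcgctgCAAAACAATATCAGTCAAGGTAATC
Atp2a2 exons 4 to 5: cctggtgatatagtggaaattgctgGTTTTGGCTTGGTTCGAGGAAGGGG

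Lengths, residues and sequences of whole circles assume that a circle kept every exon of the matched transcript between its ends and no intron. Junction reads do not show this. On that reading, all 6 circles consisted of coding exons alone. The Ryr2 circles took small pieces of a transcript of 105 exons. Exons 59 to 62 (chromosome 13, 11680966 to 11688013) formed 427 bases and covered codons for residues 2863 to 3005 of 4966. Exons 24 to 27 (chromosome 13, 11769852 to 11785141) formed 496 bases and covered residues 907 to 1072. Exons 24 to 29 (chromosome 13, 11759671 to 11785141) extended that circle to 880 bases and residue 1200, so both share their first exon and the capitals printed above. The last 2 circles therefore overlap in sequence, though exons 28 and 29 belong to the longer one alone. In junction reads, the only reads counted here, the junction tells them apart.

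The other genes gave circles from their first coding parts or their middle. Cacna1c exons 2 to 3 (chromosome 6, 119052601 to 119057515) formed 428 bases that covered residues 17 to 159 of 2222. Atp2a2 exons 4 to 5 (chromosome 5, 122489238 to 122491785) formed 244 bases that covered residues 74 to 155 of 998, a length at the 11.3 percentile of all circles. The whole of it, as spliced in the annotation, is short enough to show, with exon 4 in lower case and exon 5 in capitals.
Atp2a2 exons 4 to 5, whole circle: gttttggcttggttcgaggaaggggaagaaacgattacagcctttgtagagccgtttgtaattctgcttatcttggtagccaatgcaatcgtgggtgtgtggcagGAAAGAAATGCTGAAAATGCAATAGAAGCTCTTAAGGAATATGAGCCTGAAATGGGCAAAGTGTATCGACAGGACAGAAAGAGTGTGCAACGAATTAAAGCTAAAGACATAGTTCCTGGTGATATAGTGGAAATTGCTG

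The Slc8a1 circle ran from exon 3 to exon 9 (chromosome 17, 81428182 to 81445593) of the matched transcript and covered residues 600 to 754 of 970. This stretch contains the small alternative exons of the exchanger, of 21, 18 and 15 bases among others. Junction reads do not show which of them a circle kept, and annotated transcripts gave a spliced length of 461 or 425 bases. It is not the circle of the single large coding exon for which this gene is best known: the first exon of the junction here was 107 bases long.

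The introns beside the circles differed by gene. Over the 1657 circles with a matched downstream intron, its median length was 9717 bp, and that of the upstream intron was 11047 bp over 1654 circles. The intron after the Cacna1c circle was 272276 bp, the longest of those downstream introns, and the one before it was 50411 bp. The intron before the Slc8a1 circle was 202215 bp, at the 99.8 percentile. The Ryr2 circles lay between introns shorter than both medians, of 2278 and 4718 bp for exons 59 to 62, and Atp2a2 was flanked by 8945 and 15947 bp.

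**Figure D1:**
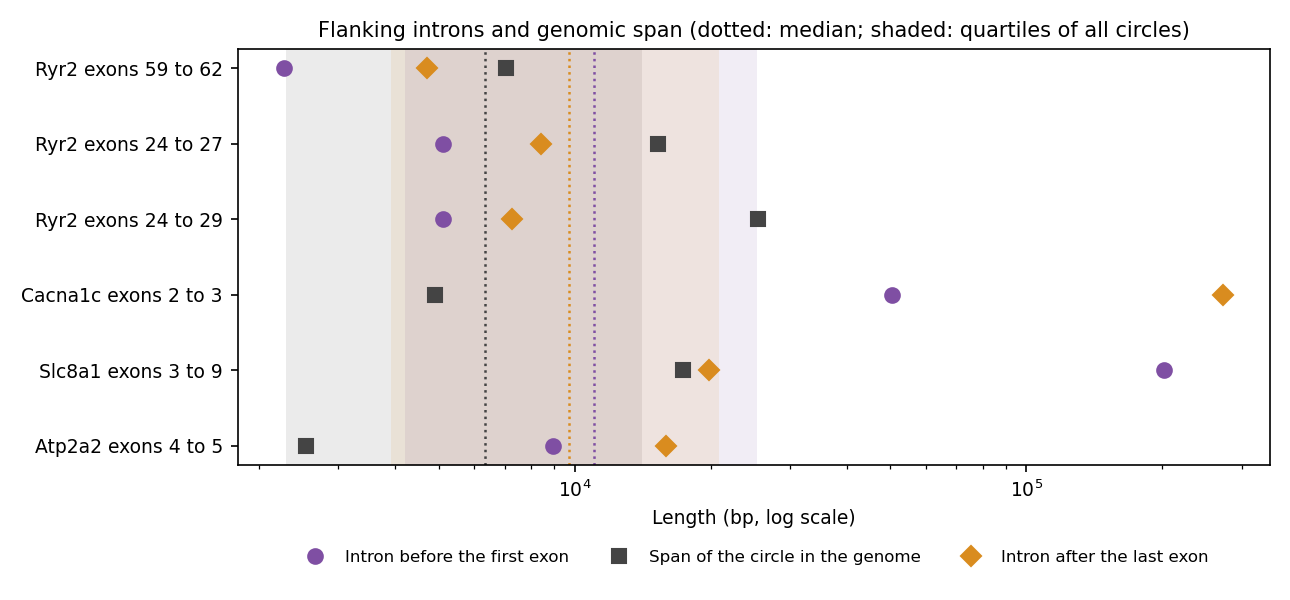
Lengths in bp on a log axis of the intron before the first exon, the genomic span of the circle and the intron after the last exon, 1 row per circle. Dotted lines mark the median and shading the range between the lower and upper quartile of all circles, each in the colour of its quantity; Cacna1c and Slc8a1 have flanking introns of 272276 and 202215 bp, while both introns of every Ryr2 circle lie below the medians.

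Levels are given as normalized reads, the deposited values less their constant offset of 0.01, where 1 read was worth 0.642 to 1.57 normalized reads. Libraries held 3595 to 9146 junction reads, so each circle rests on few molecules. Since each value counts reads over a single join, it has no exon length to correct for. Over the 24 libraries, Cacna1c exons 2 to 3 had the highest mean, 5.47 ± 3.06 normalized reads (SD), and a read in all 24. Ryr2 exons 59 to 62 followed with 4.62 ± 4.23 in 22 libraries and Slc8a1 with 2.18 ± 2.12 in 18. Ryr2 exons 24 to 27 had 1.47 ± 1.72 (14 libraries), Atp2a2 1.22 ± 1.14 (16) and Ryr2 exons 24 to 29 1.19 ± 1.13 (15). Neighbours in this order lay within one another's SD, except that the mean of Ryr2 exons 59 to 62 was above the SD range of Slc8a1. The middle circle of the table had a mean of 1.83 reads per library, so 3 of the 6 were above it, at 5.42, 4.42 and 2.21 reads, and 3 were below.

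**Figure D2:**
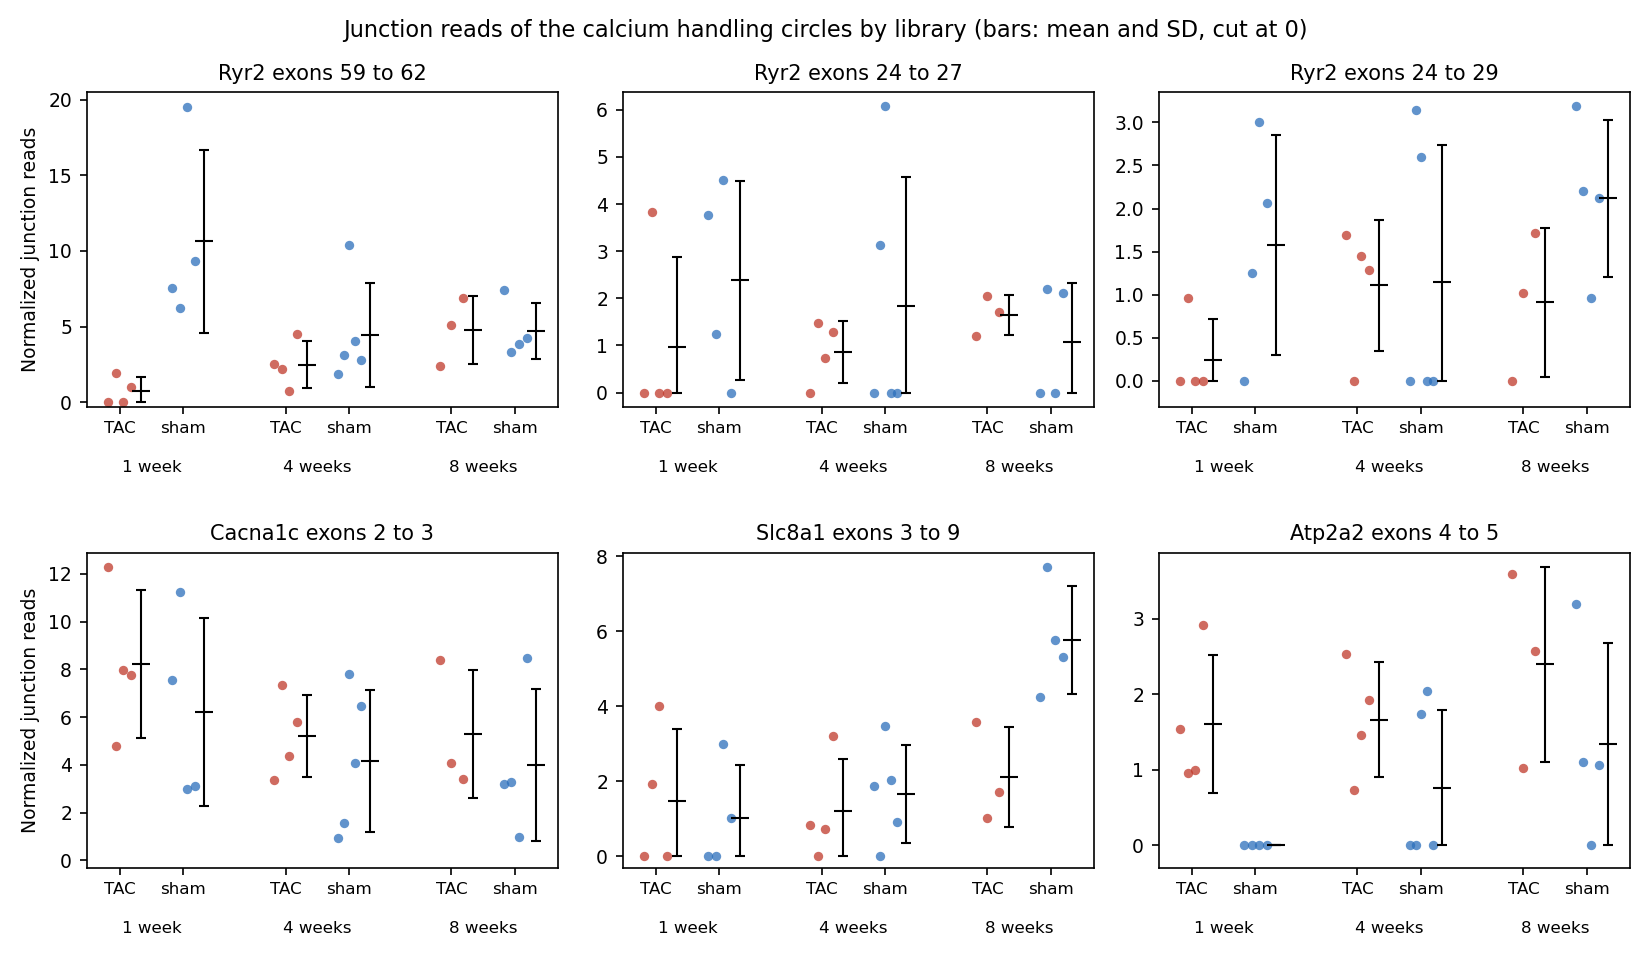
Normalized junction reads of each circle (vertical axis, its own scale per panel) in every library, TAC in red to the left of sham in blue at 1, 4 and 8 weeks, with the mean and SD in black. TAC libraries at 1 week lie at 0 to 1.92 for Ryr2 exons 59 to 62, below all 4 sham libraries at 6.23 to 19.5, and all 4 sham libraries at 8 weeks lie above the others for Slc8a1.

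The release channel gave the one difference between TAC and sham that passed the test. At 1 week Ryr2 exons 59 to 62 had 0, 2, 0 and 1 reads in the TAC libraries, against 6, 5, 13 and 9 reads in the sham libraries. The groups did not overlap: the highest TAC library had 1.92 normalized reads and the lowest sham library 6.23. The means were 0.722 ± 0.919 normalized reads in TAC and 10.7 ± 6.05 in sham (SD, n = 4 each). The log2 fold change was -3.39 ± 0.65 (SE, limma, adjusted p = 0.000528 over all 1717 circles, with calls at 0.05). Limma drew the spread behind its SE and p largely from circles of similar level, so neither measures this circle's spread alone. An exact two-sided permutation test of the 8 values gave p = 0.0286, the smallest that 4 against 4 allow.

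This was 1 of 6 calcium circles called at 1 week, beside 1.46% of all circles called and 0.699% called lower. The genes were chosen with earlier results of these data known, so this share describes the 6 and tests nothing. Groups without overlap were found for 5.24% of all circles at 1 week, 3.55% at 4 weeks and 6.12% at 8 weeks, and for 2, 0 and 1 of the 6. The reads themselves, 3 in TAC against 33 in sham, gave a ratio of 0.0789 with a 95% interval of 0.0155 to 0.252 that covers counting error only. The fold change was -4.66 with a pseudocount of 0.1 and -2.79 with 1, called in both. Without sham replicate 3, the library of 13 reads, it was -3.06 (adjusted p = 0.00388).

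At the later times the same circle did not differ past the threshold. At 4 weeks it had 3, 3, 1 and 7 reads in TAC, against 2, 2, 12, 4 and 3 reads in sham, with overlapping groups. The means were 2.49 ± 1.55 normalized reads in TAC (n = 4) and 4.45 ± 3.43 in sham (n = 5), a log2 fold change of -0.68 with a 95% interval of -1.90 to 0.54 (limma, adjusted p = 0.884). At 8 weeks it had 2, 5 and 8 reads in TAC, against 7, 3, 4 and 4 reads in sham. The means there were 4.79 ± 2.25 in TAC (n = 3) and 4.71 ± 1.87 in sham (n = 4), with a log2 fold change of -0.02 and an interval of -1.41 to 1.36 (adjusted p = 0.996).

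The TAC effect itself was compared between the times, in comparisons that share the 1-week libraries. It was 3.37 log2 units more positive at 8 weeks than at 1 week (SE 0.96; limma, unadjusted p = 0.000509, adjusted p = 0.150) and 2.71 more positive at 4 weeks than at 1 week (unadjusted p = 0.00279, adjusted p = 0.436). Neither difference passed, and no circle of the table passed either comparison in this fit (148 and 138 had an unadjusted p under 0.05). Within TAC, the mean at 8 weeks was 6.63 times that at 1 week, with no overlap between those groups (2.34 log2 units, adjusted p = 0.278). The share of all circles without overlap in that comparison was not counted, so this separation cannot be called unusual. Within sham, the mean at 8 weeks was 0.442 times that at 1 week (-1.02, adjusted p = 0.733). Averaged over the times, the log2 fold change between TAC and sham was -1.36 ± 0.38 (adjusted p = 0.0559), with 8 of 11 TAC libraries below the sham mean of their time. It passed with a pseudocount of 1 (adjusted p = 0.0415) and in 7 of the 24 fits that left out 1 library.

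**Figure D3:**
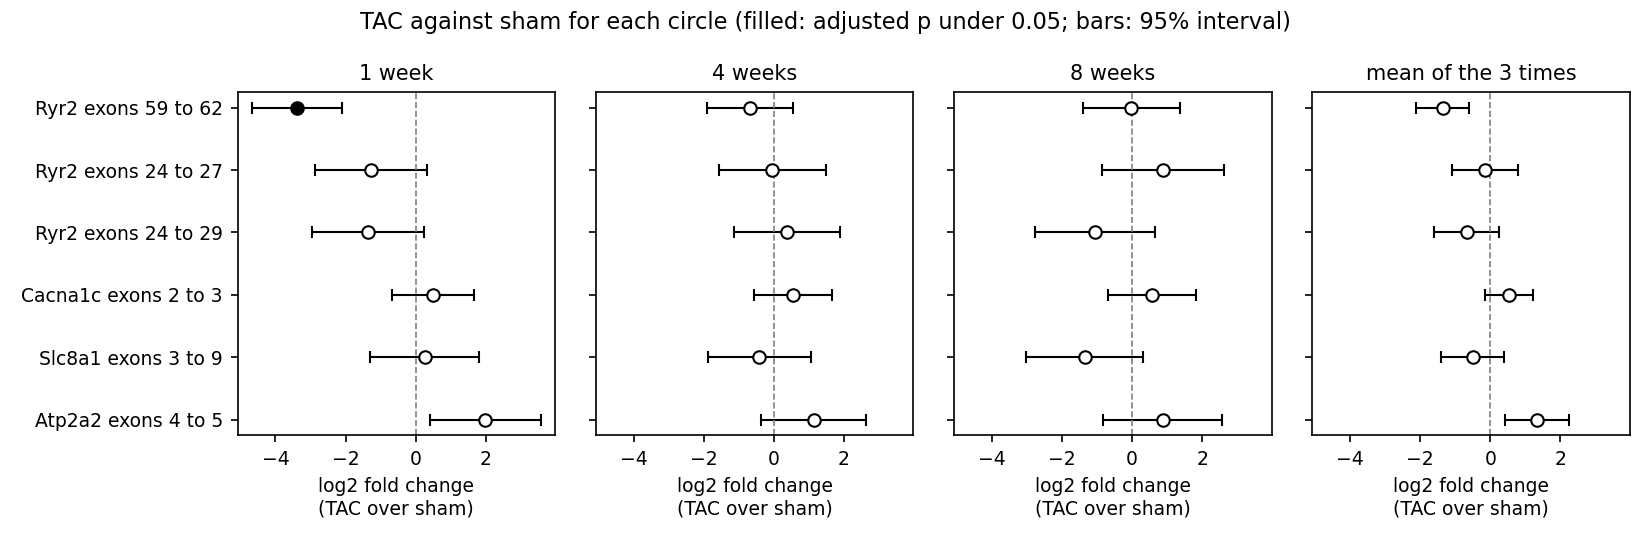
Log2 fold change of TAC over sham (horizontal axis) with its 95% interval for each circle at 1, 4 and 8 weeks and as the mean of the 3 times; a filled point passed an adjusted p of 0.05. The single filled point is Ryr2 exons 59 to 62 at 1 week, at -3.39.

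The other Ryr2 circles were scarcer and did not pass at any time. Exons 24 to 27 had 0, 4, 0 and 0 reads in TAC at 1 week, against 3, 1, 3 and 0 reads in sham. All TAC reads came from replicate 2, and the log2 fold change was -1.28 ± 0.82 (limma, adjusted p = 0.552). Exons 24 to 29 had 0, 1, 0 and 0 reads in TAC, against 0, 1, 2 and 2 in sham (-1.36 ± 0.81, adjusted p = 0.504). At 4 weeks they were at -0.04 and 0.38, and at 8 weeks at 0.88 and -1.06 (adjusted p 0.901 to 0.993).

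Summed over its 3 circles, Ryr2 had 1.92 ± 3.23 normalized reads in TAC (0.324 ± 0.562 without replicate 2) and 14.6 ± 8.38 in sham at 1 week. The sums were 4.47 ± 1.82 in TAC and 7.44 ± 7.14 in sham at 4 weeks (4.53 ± 3.39 in sham without replicate 3, which had 19.1), and 7.35 ± 3.42 in TAC and 7.91 ± 2.41 in sham at 8 weeks. Exons 59 to 62 gave 106 of the 168 Ryr2 reads, or 63.1% (Wilson 95% interval 55.6% to 70.0%). At 1 week the share was 3 of 8 reads in TAC (37.5%, 13.7% to 69.4%) and 33 of 45 in sham (73.3%, 58.96% to 84.04%). Of the 8 TAC reads 7 came from replicate 2, and without it the share was 1 of 1 read, so the TAC share describes that library and no comparison of the shares can be made.

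Circles of cardiomyocyte markers also had lower mean sums in TAC. Of 55 cardiomyocyte genes listed, apart from calcium genes, 8 had circles, 15 in all, among them the sarcomere genes Ttn and Fhod3 and the muscle membrane gene Dmd, while 47 had none in the table. Their summed level was 34.1 ± 10.3 normalized reads in TAC (23.96 to 47.67) and 77.4 ± 36.0 in sham (43.4 to 126.2) at 1 week, a ratio of 0.441. It was 36.7 ± 6.70 in TAC and 79.4 ± 25.2 in sham at 4 weeks (ratio 0.463), and 56.6 ± 7.28 in TAC and 99.9 ± 27.3 in sham at 8 weeks (0.566). The groups overlapped at 1 week and not at 4 or 8 weeks. Negative fold changes were found for 10 of the 15 marker circles at 1 week, 12 at 4 weeks, 10 at 8 weeks and 12 on average, with medians of -0.45, -0.52, -0.20 and -0.32, and 1, 2, 0 and 2 circles, all of Ttn, were called lower. The 3 Ttn circles made up 35.6% of the sum in TAC and 55.1% in sham at 1 week, 42.2% in TAC and 58.6% in sham at 4 weeks, and 50.05% in TAC and 65.4% in sham at 8 weeks. Without them the ratios were 0.633, 0.646 and 0.817, and the groups overlapped at each time. The ratio of means of Ryr2 exons 59 to 62 was 0.0678 at 1 week, 0.559 at 4 weeks and 1.02 at 8 weeks.

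Set against those markers, Ryr2 exons 59 to 62 had 2.46 reads per 100 marker reads in TAC at 1 week (0 to 8 over the libraries) and 13.9 in sham (7.69 to 21.4). The figures were 6.93 in TAC and 5.76 in sham at 4 weeks, and 8.98 in TAC and 4.74 in sham at 8 weeks. The ranges of TAC and sham overlapped at each time, at 1 week through 1 TAC library. The marker reads include those of the Ttn circles, and no such figure was made without them. At 8 weeks the means of Ryr2 exons 59 to 62 itself were 4.79 normalized reads in TAC and 4.71 in sham. The sham libraries with the most Ryr2 reads, replicate 3 at 1 week and replicate 3 at 4 weeks, also had the highest marker sums of their groups, 126.2 and 123.2. So did sham replicate 1 at 8 weeks (134.1). The TAC groups did not show this order. Replicate 2 at 1 week, with 7 Ryr2 reads, and replicate 3 at 8 weeks, with 12, led their groups but had the lowest marker sums, 23.96 and 48.86. At 4 weeks TAC replicate 4 had the most Ryr2 reads and a marker sum of 37.9, below the 45.5 of replicate 2. Fewer cardiomyocytes in a preparation and less RNA per cell cannot be told apart in such bulk samples, and the part of cell makeup in the Ryr2 result was not tested.

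The labelled cell type could be checked only in part. Of 28 cardiac fibroblast markers, Dcn and Fbn1 had a circle each, with group means of 1.45 to 3.80 summed normalized reads, and 26 had none in the table. Leukocyte markers had 17 circles of 7 genes, with group means of 80.2 to 122.4, endothelial markers 6 circles at 15.3 to 21.1, and the mural list 1 circle, of Abcc9, at 2.28 to 6.04. None of the circles on these 4 lists was called between TAC and sham at any time or on average. A circle's absence does not show that its gene was silent, since the table holds no linear RNA.

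**Figure D4:**
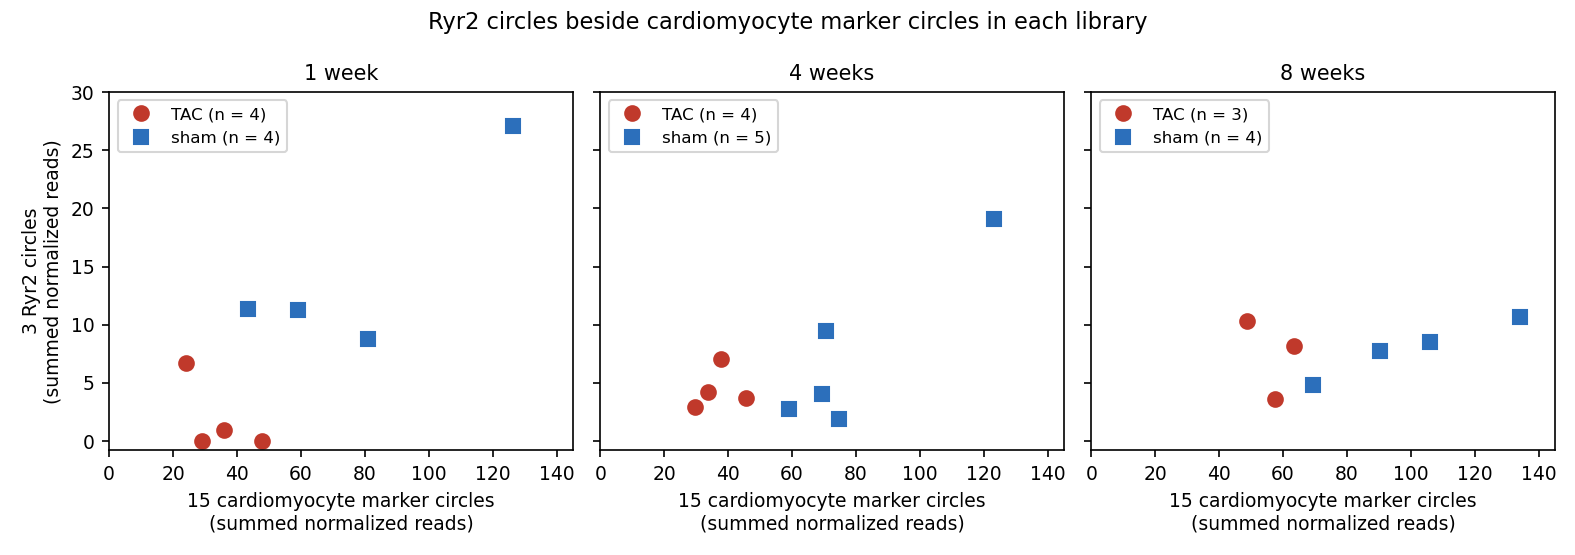
Summed normalized reads of the 3 Ryr2 circles (vertical axis) against those of 15 cardiomyocyte marker circles (horizontal axis), 1 point per library and 1 panel per time, TAC as red circles and sham as blue squares. The TAC libraries at 1 week lie at 0 to 6.71 and the sham libraries at 8.73 to 27.1; at 8 weeks the groups overlap on the vertical axis while the TAC libraries lie to the left of all sham libraries.

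The circle of the calcium pump had positive fold changes at all 3 times, on very few reads, and none passed. Atp2a2 exons 4 to 5, printed whole above, had 1, 1, 1 and 3 reads in TAC at 1 week, against 0 in each of the 4 sham libraries. The TAC mean was 1.60 ± 0.916 normalized reads, 1.70 times a floor of 0.945, the level of 3 reads over the sham group. This ratio leaves out the counting error of the 6 TAC reads, so it is not a lower limit of the difference. The log2 fold change of 1.98 ± 0.81 did not pass (limma, unadjusted p = 0.0143, adjusted p = 0.226), and the exact permutation p was 0.0286.

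At 4 weeks it had 3, 1, 2 and 3 reads in TAC, against 0, 0, 2, 2 and 0 in sham. The means were 1.66 ± 0.761 normalized reads in TAC and 0.754 ± 1.04 in sham (log2 fold change 1.14 ± 0.77, adjusted p = 0.803). At 8 weeks it had 3, 1 and 3 reads in TAC, against 3, 1, 0 and 1 in sham (0.87 ± 0.87, adjusted p = 0.935). The fold change was positive at each time and 1.33 ± 0.47 on average, with 9 of 11 TAC libraries above the sham mean of their time, and it did not pass over all circles (unadjusted p = 0.00494, adjusted p = 0.173).

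A read of the Atp2a2 circle was present in 11 of 11 TAC libraries and in 5 of 13 sham libraries. A read in all TAC libraries and in at most 5 sham libraries was found for 1 circle of 1717 (0.0582%), this one. That limit was set from its own values after they were seen, so the count describes the table and tests nothing. The sham libraries had 9 reads in all and the TAC libraries 22.

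The circle of the L-type channel's pore subunit did not pass the test at any time. Cacna1c exons 2 to 3 had 8, 5, 8 and 8 reads in TAC at 1 week, against 6, 9, 2 and 3 in sham. The means were 8.22 ± 3.09 normalized reads in TAC and 6.22 ± 3.95 in sham, with overlapping groups (log2 fold change 0.50 ± 0.59, adjusted p = 0.808). It had 4, 10, 6 and 9 reads in TAC at 4 weeks, against 1, 1, 9, 4 and 7 in sham (0.54 ± 0.56, adjusted p = 0.890). At 8 weeks it had 7, 4 and 4 reads in TAC, against 3, 3, 1 and 8 in sham (0.56 ± 0.64, adjusted p = 0.942).

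The 3 estimates for Cacna1c differed by at most 0.06 log2 units, and their average was 0.53 with a 95% interval of -0.15 to 1.21 (limma, adjusted p = 0.625). The interval holds both no change and a rise of over 1 log2 unit, so these data do not show that the level was the same in TAC and sham. It was the deepest of the 6 circles, and the one whose mean reached 5 reads per library.

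The exchanger circle was highest in the sham libraries of 8 weeks. Slc8a1 exons 3 to 9 had 3, 1 and 2 reads in TAC at 8 weeks, against 4, 7, 6 and 5 reads in sham. The means were 2.11 ± 1.33 normalized reads in TAC (n = 3) and 5.76 ± 1.44 in sham (n = 4), and the groups did not overlap. The log2 fold change of -1.36 ± 0.85 did not pass (limma, adjusted p = 0.823), and the exact permutation p of 0.0571 is the smallest that 3 against 4 libraries allow.

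At 1 week Slc8a1 had 0, 2, 4 and 0 reads in TAC, against 0, 0, 2 and 1 in sham (0.25 ± 0.79, adjusted p = 0.947). At 4 weeks it had 1, 0, 1 and 5 reads in TAC, against 2, 0, 4, 2 and 1 in sham (-0.41 ± 0.75, adjusted p = 0.952). Both pairs of groups overlapped. The sign at 1 week turned in 4 of the 24 fits that left out a library (lowest -0.35), and at 4 weeks in 1 (0.05).

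All 4 sham libraries at 8 weeks, at 4.26 to 7.70 normalized reads, lay above the other 20 libraries, of which the highest had 3.99. Only this circle of the 1717 (0.0582%) showed that order, which was looked for after its values were seen. Within sham, the level at 8 weeks was 2.51 ± 0.79 log2 units above that at 1 week (limma, unadjusted p = 0.00151, adjusted p = 0.236) and 1.80 ± 0.75 above that at 4 weeks (unadjusted p = 0.0163, adjusted p = 0.650). Neither passed, in comparisons where 0.116% and 0% of all circles did. Within TAC, 8 weeks against 1 week gave 0.90 ± 0.85 (adjusted p = 0.836). Sham at 8 weeks also had the highest mean marker sum of cardiomyocytes, 99.9 ± 27.3. Within that group, replicate 1 had the highest marker sum, 134.1, and the lowest Slc8a1 value, 4.26. Sham replicate 3 at 1 week and at 4 weeks, with marker sums of 126.2 and 123.2, had the highest Slc8a1 values of their groups, 3.005 and 3.47. The part of cell makeup in the Slc8a1 values was not tested.

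The 6 circles did not share one direction. At each of the 3 times 3 had negative and 3 positive fold changes between TAC and sham, with medians of -0.51, 0.17 and 0.27 log2 units, beside 0.04, 0.12 and 0.03 over all 1717 circles. At 1 week the negative ones were the 3 Ryr2 circles and the positive ones those of Cacna1c, Slc8a1 and Atp2a2. At 4 and 8 weeks and on average none was called, where 0.116%, 0% and 0.641% of all circles were. At 8 weeks, where limma called none in the table, 104 had an unadjusted p under 0.05 and limma-voom called 0.

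Other genes of calcium handling were read from a list of 91, of which 13 had circles, 20 in all. They included the inositol trisphosphate receptors Itpr1 and Itpr2, the calcium-regulated transcription factors Nfatc2 and Nfatc3, the kinase gene Camk2d, the reticulum protein gene Asph, the plasma membrane pump gene Atp2b4 and the channel gene Trpm7. None of the 20 was called between TAC and sham at 1, 4 or 8 weeks or on average. Fold changes were positive for 12, 9, 11 and 12 of them, with medians of 0.44, -0.16, 0.26 and 0.09. Their summed level was 59.9 ± 16.1 normalized reads in TAC and 51.5 ± 9.40 in sham at 1 week, 52.4 ± 6.30 in TAC and 53.2 ± 9.18 in sham at 4 weeks, and 56.0 ± 7.08 in TAC and 52.0 ± 14.7 in sham at 8 weeks.

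The 4 of smallest p on average were all positive. Nfatc3 exon 2, of a factor that calcineurin sends to the nucleus, measured 5.90 ± 4.10 normalized reads in TAC and 2.46 ± 0.963 in sham at 1 week. At 4 weeks it was 5.43 ± 2.11 in TAC and 2.58 ± 1.68 in sham, and at 8 weeks 4.33 ± 2.74 in TAC and 1.81 ± 1.33 in sham. Its averaged log2 fold change was 1.13 ± 0.39 (limma, unadjusted p = 0.00431, adjusted p = 0.172). Itpr2 exons 17 to 21 (0.98), Canx exons 10 to 11 (0.96) and Itpr2 exons 49 to 55 (0.77) followed, with adjusted p of 0.450 to 0.592; Itpr2 is a release channel of the endoplasmic reticulum and Canx encodes the chaperone calnexin.

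Likeness to other circles was described by Pearson's r of log2 values over the 24 libraries, among the 272 circles with a mean of at least 5 reads. Those points share groups and depth, and few reads weaken any such value. The circles most like Ryr2 exons 59 to 62 were Ablim3 exons 4 to 8 (r = 0.73), Ogdh exons 3 to 4 (0.70) and Ttn exons 85 to 118 (0.66). For Slc8a1 they were Dlc1 exon 2 (0.69), Ilkap exons 6 to 7 (0.61) and Crebrf exons 3 to 4 (0.56). For Cacna1c they were Aff3 exons 2 to 4 (0.65), Picalm exons 14 to 20 (0.58) and Tcf25 exons 3 to 4 (0.47). For Atp2a2 they were App exons 7 to 11 (0.66), Eed exons 9 to 11 (0.64) and Cnot2 exons 2 to 4 (0.61).

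Among themselves, the Ryr2 circles gave r of 0.47 and 0.57 between exons 59 to 62 and the circles of exons 24 to 27 and 24 to 29, and 0.41 between the circles that start at exon 24. Ryr2 exons 59 to 62 gave -0.25 with Cacna1c, -0.26 with Atp2a2 and 0.22 with Slc8a1. Of the Ttn circles, exons 85 to 118 also passed at 1 week (log2 fold change -1.55 ± 0.36, limma, adjusted p = 0.0075). It passed at 4 weeks too (-1.51 ± 0.34, adjusted p = 0.0232), as did Ttn exons 84 to 118 (-2.23 ± 0.53, adjusted p = 0.0274), and both passed on average. Whether the Ttn circles and Ryr2 exons 59 to 62 differ in their change was not tested.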

How the data were processed

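The authors deposited 1 table of back-splice junction reads as a normalized signal, with 24 columns matched to samples by their labels. Per the submitters' processing notes, FastQC, Trimmomatic and STAR were used with build mm10, without versions; settings of the caller, its filters and the scaling are not stated there. In the deposited signal, taking 0.01 from each value left whole multiples of 1 step per library (100% of values within 0.001 read), so reads were recovered for display and for some alternatives. Junctions were annotated with GENCODE M21, which gave 1187 host genes.

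All 1717 circles had at least 2 reads in at least 3 libraries. The main test was limma 3.58.1 (R 4.3.3) with an intensity trend on log2(normalized reads + 0.5), over 6 groups and 24 libraries, with Benjamini-Hochberg adjustment over 1717 circles and calls at 0.05; this scale understates changes of scarce circles. Alternatives were other pseudocounts, scalings and filters, limma-voom, fits of the compared groups alone, a replicate block and leaving out each library. The script was checked on simulated data with changes set in TAC at 1 week. A fall to 0.25 of the level was called for 8% of 50 changed circles, and a fall to 0.0625 for 29.2% of 48. Rises of 4 and 16 times were called for 28% and 94%, and unchanged circles for 0.397%. Most simulated falls were thus missed, so a circle that was not called may still have changed. None of the 37 pairs of libraries within groups was identical (largest chi-square p 0.0109). Intervals of read ratios and shares, and floors, cover counting error only. The SE, intervals and p-values of log2 fold changes come from limma and a spread between libraries drawn largely from circles of similar level. At 1 week, Itpr1 exons 38 to 44 and Itpr2 exons 49 to 55 thus had the same SE, 0.8091. Such values do not measure the spread of a single circle alone.

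The 4 genes and the gene lists were chosen with earlier results of these data known. All circles of the 4 genes were named, besides the 4 other calcium circles of smallest averaged p and the 3 circles most like the most abundant circle of each gene. Permutation tests used scipy 1.17.1 in Python 3.11.15.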

Additional observations from a re-analysis of the deposited data

Results flagged for a closer look

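Of 29 sets of 4 or 5 libraries, 1 per circle and group, 3 had a library far from the rest. Chance gives about 1 in 20 for continuous values, a rate that does not hold for such sparse reads: a set with reads in 1 library alone is always picked, as in the TAC cases given here. For Ryr2 exons 59 to 62, sham replicate 3 at 4 weeks had 10.4 normalized reads (12 reads), against 1.87 to 4.07 in the other sham libraries of that time. In TAC at 1 week, replicate 2 had 3.83 normalized reads (4 reads) of Ryr2 exons 24 to 27 and 0.959 (1 read) of Ryr2 exons 24 to 29, while the other 3 libraries had 0 of both.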

How the results depend on the processing

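The call of Ryr2 exons 59 to 62 at 1 week was kept in all 24 fits that left out 1 library (-3.82 to -3.06, largest adjusted p 0.00868) and in the 8 other settings that tested it (-4.66 to -2.79, largest adjusted p 0.0104). Leaving out a library of 4 or 8 weeks cannot move this fold change. The setting without a filter equals the main fit, since every circle passes the filter. With a mean of at least 5 reads required, 272 circles and only Cacna1c of the 6 were tested, so the number called was 0. On average over the times, 1 of the 6 was called with a pseudocount of 1, and 0 to 1 with 1 library left out; these were without TAC replicate 2 or 4 or sham replicate 1 or 2 at 1 week, and without TAC replicate 4 or sham replicate 1 or 2 at 4 weeks (adjusted p 0.0262 to 0.171 over the 24 fits). No other comparison called any of the 6 under any setting run. Over all circles, 25 calls at 1 week became 6 to 32 with 1 library left out and 4 when the 1-week libraries were fitted alone, and 13 with limma-voom; the 2 calls at 4 weeks became 0 to 7, 14 and 10.

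Libraries with the same replicate number in their titles gave low correlations (-0.0765 to 0.135 over 11 pairs, 1 above 0.1). At 1 week these were all positive, 0.0222 to 0.135. The column names number the sham libraries of 4 and 8 weeks otherwise, and pairs matched by them gave -0.0397 to 0.00908 there. Whether any pair was handled together is not stated, so shared variation is not excluded. The replicate block used the title numbers. With a replicate block, Ryr2 exons 59 to 62 stayed called at 1 week (adjusted p = 0.000483), so 1 of the 6 was called then, 0 at 4 weeks, 0 at 8 weeks and 0 on average, and all circles gave 30, 4, 0 and 9 calls. The planned edgeR and DESeq2 fits were not run, since the deposited values carry an offset and were not taken as raw counts. The recovered reads could have entered such fits, but only limma-voom was run on them. A mean of 1.19 to 5.47 normalized reads per circle limits every comparison here: a single read decides many values. The summed Ryr2 values without 1 library and the marker sums without Ttn were added after seeing the data.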
